A study of Oryza sativa with 6 samples.

Results

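The peaks described here are those whose start lies within 1.5 Mb of the centromere position of each of the 12 rice chromosomes, a window of 3 Mb per chromosome. They number 1573 of the 29513 peaks in the deposited list (5.33%) and name 1252 of its 24592 loci. The centromere positions were 16.7, 13.6, 19.4, 9.7, 12.4, 15.3, 12.1, 12.9, 2.8, 8.2, 12 and 11.9 Mb on chromosomes 1 to 12 in order, and position alone chose the peaks. Each peak name begins with PIF4-GFP1, and the sources used here do not say which libraries went into the list. The study took leaves of rice plants 3 weeks of age that overexpress PIF4-GFP and of GFP mock plants, 3 libraries each, all raised in pots under drought stress and a fluctuating light regime. The promoter of the transgene and the number of lines are not stated in those sources. The labels describe total RNA, while the series is typed as chromatin immunoprecipitation sequencing. Expression tables for 1177 genes, most of them transcription factors, accompany the list, and 0 of their descriptions name a leaf or root marker that could check the tissue label. There is 1 peak list and no peak list of the GFP mock, so no value of a peak has a replicate error.

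PIF4 is a basic helix-loop-helix factor that acts downstream of the phytochromes and binds G-box and related motifs at gene promoters. Centromeres are the chromosomal sites where the histone variant CENH3 and the kinetochore assemble, and in rice their core consists of the CentO satellite repeat and centromeric retrotransposons. The surrounding pericentromeric chromatin is rich in transposons and poor in expressed genes, although rice centromeres, that of chromosome 8 among them, are known to hold some transcribed genes. No sequence is printed here, since no genome of the build of the list was used.

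The stated positions were first set against the list itself. In 10 of the 12 windows the longest stretch without a listed peak was centred within 0.5 Mb of the stated position, and in 3 windows, on chromosomes 7, 9 and 10, it contained that position. These stretches ran from 142.8 kb on chromosome 6 to 410 kb on chromosome 7. On chromosomes 2, 4, 7, 8 and 11, thus 5 of 12, the window also held the longest such stretch of the whole chromosome. On the other chromosomes a longer one lay elsewhere, the longest on chromosome 6 with 538.8 kb. A stretch without listed peaks is therefore a feature of these windows but is not particular to them.

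Listed peaks were sparse around the centromeres. The windows held 43.7 ± 9.48 peaks per Mb and the rest of each chromosome 81.1 ± 12.3 (mean ± SD over 12 chromosomes), a difference of -37.4 ± 12 that had the same sign on 12 of 12 chromosomes. An exact permutation test of the 12 paired differences, two-sided, gave p = 0.000488, the smallest that 12 pairs allow, and an adjusted p of 0.000977 over 10 measures. The density of the rest exceeded that of the window by 1.34-fold on chromosome 9 to 2.72-fold on chromosome 4. Peaks covered 7.94 ± 1.67% of the windows and 14.5 ± 2.64% of the rest (adjusted p = 0.000977, exact permutation test). Chromosomes of 1 list share library and caller, so these p-values describe the list and not the precipitation.

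The 12 windows differed among themselves, from 28.7 to 58 peaks per Mb. Chromosome 4 held 86 peaks, 28.7 per Mb with an exact Poisson 95% interval of 22.9 to 35.4, and chromosome 11 held 90, 30 per Mb (24.1 to 36.9). At the other end chromosome 1 held 174, 58 per Mb (49.7 to 67.3), and chromosome 7 held 164, 54.7 per Mb (46.6 to 63.7). The intervals of these pairs do not overlap, while neighbours in the order, such as chromosomes 4, 11 and 10 (34.7 per Mb, 28.3 to 42.0), do. Chromosome 9 followed with 161 peaks, chromosome 6 with 150, chromosome 3 with 139, chromosome 2 with 134, chromosome 12 with 127, chromosome 8 with 124, chromosome 5 with 120 and chromosome 10 with 104. Chromosomes that are rich in peaks elsewhere were only loosely those with rich windows (Spearman rho 0.38 over 12 chromosomes, given as a description). The intervals cover counting error only.

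**Figure D1:**
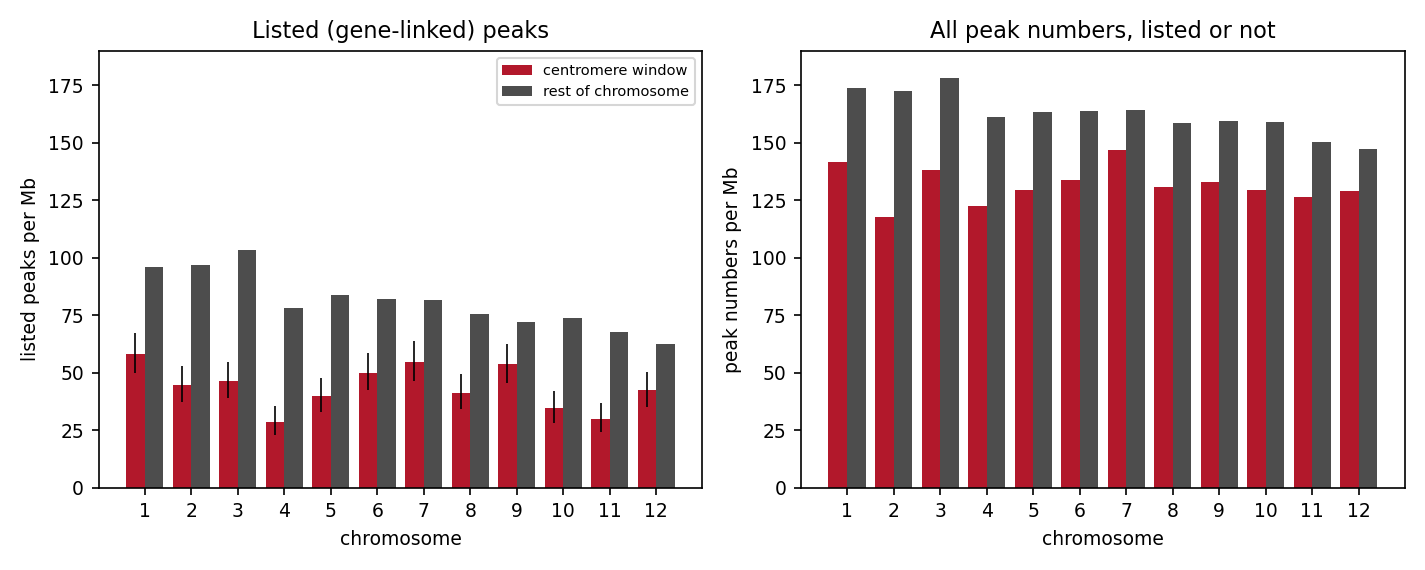
Bars show, for each of the 12 chromosomes, the density in the centromere window (red) and in the rest of the chromosome (grey). Left, listed peaks per Mb, with exact Poisson 95% intervals on the window; right, all peak numbers per Mb, whether or not the number is in the list. Window bars are lower than the rest on every chromosome in both plots, by 46.1% of the mean for listed peaks and 19.1% for all numbers.

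Many numbers in the series of peak names are absent from the list near the centromeres. Numbers rose with position in all 29501 pairs of neighbours, so each missing number can be placed between its listed neighbours. The list holds no peak classed as intergenic, and the sources do not state what the missing numbers stand for. In the windows 3163 of 4736 numbers were missing. The listed share was 33.1 ± 6.03% in the windows and 49.7 ± 4.82% in the rest, lower on 12 of 12 chromosomes (difference -16.6 ± 6.02 percentage points, adjusted p = 0.000977, exact permutation test). It was lowest on chromosomes 4 (23.4%) and 11 (23.7%) and highest on chromosomes 1 (40.9%) and 9 (40.4%).

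Counted by number, the windows came much closer to the rest of the chromosome. All numbers, listed or not, had a density of 132 ± 8.07 per Mb in the windows and 163 ± 9.03 in the rest, again lower on 12 of 12 chromosomes. The missing numbers taken alone were denser in the windows, with 87.9 ± 6.88 per Mb against 81.5 ± 3.82, on 10 of 12 chromosomes. Chromosomes 2 and 9 were the exceptions. These densities of numbers were added after the data were seen and are given without a test.

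Rice locus identifiers are numbered along the chromosome, mostly in steps of 10, but the numbering jumps near the centromeres, so that steps are no count of annotated loci there. In the list, 92.0% of peaks lay at a locus number that ends in 0, and the numbers followed position with a Spearman rho of at least 0.999998 per chromosome. In 10 of 12 windows, all but those of chromosomes 4 and 8, the number rose by 100.3 to 141.4 steps between a single pair of neighbouring peaks, over 69.2 to 410.4 kb and within 0.3 Mb of the stated position. On chromosome 3 this was from LOC_Os03g34310 to LOC_Os03g35340, 103 steps in 69.2 kb. Only 2 jumps of 100 steps or more lay outside the windows. With the jumps there were 186 ± 20.4 steps per Mb in the windows and 164 ± 6.28 in the rest. Without them there were 155 ± 18.5 and 163 ± 6.12, fewer in the window on 8 of 12 chromosomes. Per step, jumps included, the windows held 0.236 ± 0.0508 listed peaks and the rest 0.495 ± 0.0706 (difference -0.260 ± 0.0704, lower on 12 of 12 chromosomes, adjusted p = 0.000977, exact permutation test). Without the jumps, a setting chosen after seeing the data that also drops any loci inside them, the values were 0.286 ± 0.0720 and 0.498 ± 0.0720 (difference -0.211 ± 0.0869, lower on 12 of 12 chromosomes, adjusted p = 0.000977, exact permutation test). Peaks at locus numbers that do not end in 0, of which the files say nothing further, made up 15.6% of the window peaks (Wilson 95% interval 13.9 to 17.5%) and 7.56% of the others (7.25 to 7.87%). This share was not among the 10 tested measures and was not compared with the flanks. Its intervals take peaks as independent, although several can share a locus.

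The low density was not bounded by the windows. Within 0.5 Mb of the stated positions there were 31.7 listed peaks per Mb, the 12 chromosomes pooled, from 0.5 to 1 Mb 46.7, and from 1 to 1.5 Mb 52.8. From 1.5 to 4 Mb it lay between 42.8 and 53.0 per Mb. Beyond that it was 61.1 from 4 to 4.5 Mb, 65.8 from 5 to 5.5 Mb, 54 from 5.5 to 6 Mb and 78.9 from 7 to 7.5 Mb. Against the flanks alone, 3 Mb beyond each edge, the difference was -8.04 ± 12.7 peaks per Mb, with 9 of 12 chromosomes lower, and did not pass (adjusted p = 0.0879, exact permutation test). On chromosomes 7, 9 and 12 the window was denser than its flanks, with 54.7 against 48.0 peaks per Mb on chromosome 7. The listed share likewise differed from the flanks by -3.28 percentage points (adjusted p = 0.168) and the covered share by -1.41 (adjusted p = 0.0830, exact permutation tests). Peaks per locus step differed from the flanks by -0.0866 with the jumps of the numbering included (adjusted p = 0.0146). Without the jumps the difference was -0.0363, lower on 8 of 12 chromosomes, and did not pass (adjusted p = 0.190, exact permutation tests).

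Moving a 3 Mb stretch along each chromosome in steps of 0.1 Mb gave the same picture. The sparsest stretch was centred within 1.5 Mb of the stated position on 7 of 12 chromosomes. On chromosome 2 it coincided with the window, at 134 peaks. On chromosome 4 it held as many peaks as the window, 86, but lay 6.9 Mb to the left of the position, and on chromosome 9 it held 89 and lay 5 Mb to the right. The share of positions sparser than the window ran from 0% on chromosomes 2 and 4 to 39.5% on chromosome 9.

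**Figure D2:**
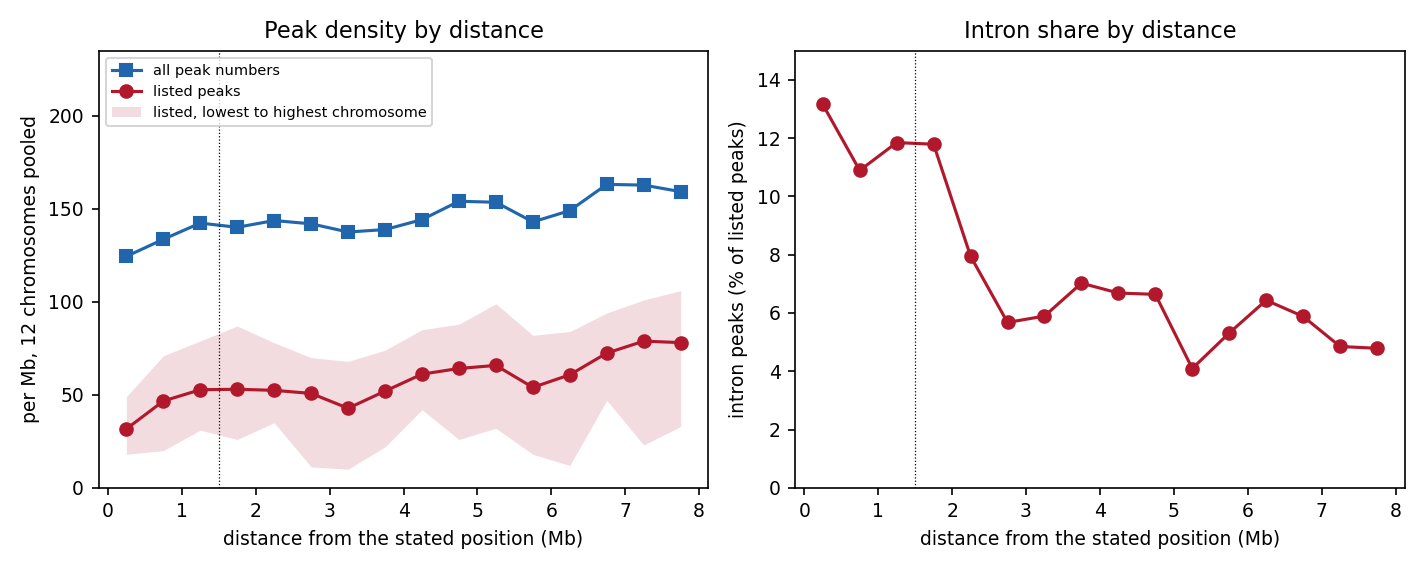
Left, listed peaks (circles) and all peak numbers (squares) per Mb in bins of 0.5 Mb by distance from the stated centromere position, both sides and 12 chromosomes pooled, with the range of listed peaks over chromosomes shaded. Right, the share of listed peaks that lie in introns in the same bins. The dotted line marks the window edge at 1.5 Mb; listed peaks are sparsest in the innermost bin, at 31.7 per Mb, and the intron share falls from 11.8% to 7.95% beyond 2 Mb.

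The peaks nearest to the stated positions were of all 4 classes. Of the 24 nearest, 1 on each side of each position, 14 were classed as promoter, 5 as intron, 4 as transcription end and 1 as exon. The promoter class made up 73.7% of all window peaks and 72.1% of the 380 within 0.5 Mb of the positions. The 24 are a small count, and their classes were not tested. On chromosome 12 a peak began 0.6 kb from the position, at LOC_Os12g20380 (transcription end, 11900600 to 11905599). On chromosome 1 the promoter peaks of LOC_Os01g29790 (16690600 to 16694799) and LOC_Os01g29820 (16704600 to 16706999) stood on either side, within 9.4 kb. On chromosome 10 the promoter peak of LOC_Os10g16430 (8192400 to 8194199) was 7.6 kb to the left, while the next to the right, at the promoter of LOC_Os10g16890 (8423600 to 8426599), was 223.6 kb away.

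The widest break fell on chromosome 7. Its stated position lay between an exon peak of LOC_Os07g20610 (11909800 to 11910199) and an intron peak of LOC_Os07g22024 (12320200 to 12323199), 410 kb apart, with 55 missing peak numbers between them. On chromosome 4 a break of 326.6 kb with 39 missing numbers, from 10533600 to 10860199, separated LOC_Os04g18950 from LOC_Os04g19500. On chromosome 11 a break of 336.2 kb with 41 missing numbers, from 12224200 to 12560399, separated LOC_Os11g21800 from LOC_Os11g21890. The break of chromosome 1, of 250.4 kb from 16732000 to 16982399, held 14. Among the longest breaks, 1 per window, each contained missing peak numbers, the fewest being 7 in the break of 155.6 kb on chromosome 2 between LOC_Os02g22820 and LOC_Os02g23823.

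**Figure D3:**
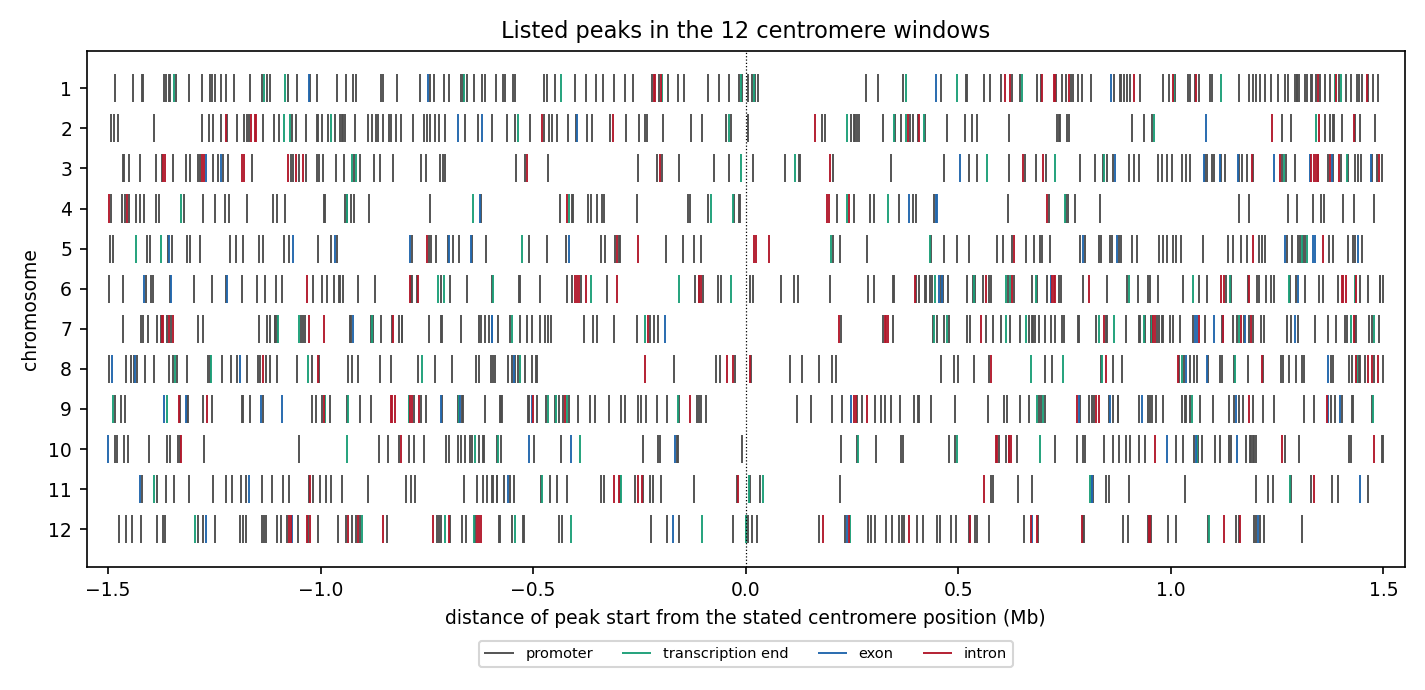
Each line is a listed peak, placed by the distance of its start from the stated centromere position (dotted line) on each of the 12 chromosomes and coloured by class. Blank stretches near the dotted line are visible on most chromosomes, the widest on chromosome 7 (410 kb), and intron peaks occur in runs, such as the 4 within LOC_Os03g37411 on the right of chromosome 3.

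The class of the peaks differed most in introns. In the windows 186 of 1573 peaks lay in introns (11.8%, Wilson 95% interval 10.3 to 13.5%), against 1380 of 27940 elsewhere (4.94%, 4.69 to 5.20%). Averaged over chromosomes the intron share was 11.6 ± 3.62% in the windows and 5.02 ± 0.671% in the rest, higher on 12 of 12 chromosomes (difference 6.55 ± 3.85 percentage points, adjusted p = 0.000977, exact permutation test). It ran from 7.50% on chromosome 5 (9 peaks) to 18.1% on chromosome 12 (23 peaks), with chromosomes 3 (16.5%) and 6 (16%) next to the top. The intron share stayed at 11.8% from 1.5 to 2 Mb, outside the windows. Against the flanks the difference was 3.85 points, with 9 of 12 chromosomes higher, and did not pass (adjusted p = 0.0659, exact permutation test).

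Promoter peaks made up a smaller part. Their share was 74.0 ± 4.29% in the windows and 79.2 ± 1.53% in the rest, lower on 10 of 12 chromosomes (difference -5.26 ± 5.25 points, adjusted p = 0.0146, exact permutation test). Chromosomes 1 and 2 went the other way, with 80.5% against 78.1% on chromosome 1. Against the flanks the difference of -4.38 points did not pass (adjusted p = 0.0659, exact permutation test). The exon share, 6.06 ± 2.37% against 7.68 ± 0.670%, was lower on 9 of 12 chromosomes and did not pass (adjusted p = 0.0763). It passed without chromosome 5, where it was 10.8% in the window and 6.34% in the rest (difference -2.18 points, adjusted p = 0.00651). The share at transcription ends was 8.41 ± 1.45% against 8.08 ± 0.991%, with 6 chromosomes either way (adjusted p = 0.495, exact permutation tests). Relative to the flanks this share was 1.32 points higher, on 9 of 12 chromosomes, and did not pass (adjusted p = 0.0586, exact permutation test).

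**Figure D4:**
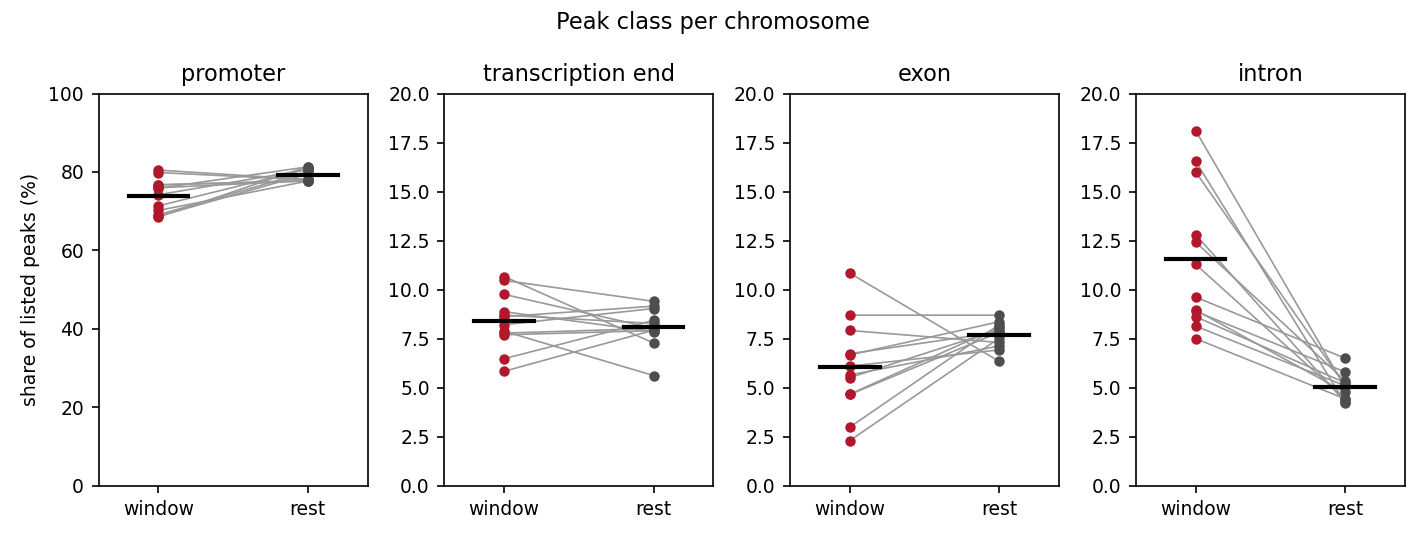
Each pair of joined points is 1 chromosome, with the share of its listed peaks in a class inside the centromere window (red) and in the rest (grey); black bars are means over 12 chromosomes. The promoter axis runs to 100% and the others to 20%. The intron share is higher in the window on all 12 chromosomes, with means of 11.6% and 5.02%.

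Intron peaks of the windows, pooled over chromosomes, had a greater median distance from the gene start than those elsewhere. All intron and exon peaks in the list are centred at least 2000 bp downstream of the start, so that only genes longer than this can carry one. The distance from the annotated start had a median of 4774.5 bp in the windows and 4069 bp elsewhere. More than 5000 bp away were 46.2% (Wilson interval 39.2 to 53.4%) in the windows against 35% (32.5 to 37.6%) elsewhere. These intervals take peaks as independent, although 83 of the 186 window intron peaks lay at only 51 loci, those with 3 or more window peaks. The distance of intron peaks was not compared by chromosome or with the flanks and has no test. The first intron held 37 of the 186 (19.9%) and, elsewhere, 19.6%. Gene and intron lengths were not used here, so whether the windows hold longer introns was not tested. The deepest was an intron peak of LOC_Os04g18010, 23609 bp from the start, which is also the peak nearest to the stated position on the right of chromosome 4 (9891800 to 9892199).

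No difference in width passed the test. The median was 1400 bp (quartiles 800 and 2400 bp) in the windows and 1400 bp (800 and 2200 bp) elsewhere. The median width per chromosome was 50 ± 157 bp greater in the windows, on 5 chromosomes wider, on 2 narrower and on 5 equal (adjusted p = 0.417, exact permutation test). Of the window peaks 4.13% (3.26 to 5.23%) reached 5000 bp, and 4.38% (4.14 to 4.62%) of the others did. Widths come in steps of 200 bp in all but 1 of the peaks, which limits how finely such medians can differ. Promoter peaks had a median of 1600 bp in the windows and 1400 bp elsewhere, exon peaks 1000 and 800 bp, and intron peaks 1000 and 1200 bp.

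The gaps between neighbouring listed peaks showed the lower density directly, with a median of 9800 bp (quartiles 3800 and 25400 bp) in the windows and 5400 bp (2600 and 11400 bp) elsewhere. The placement of promoter peaks differed by less than the test could call: their centres lay at a median of 160.5 bp downstream of the start in the windows and 199 bp elsewhere. Averaged over chromosomes the medians were 156 ± 80.2 and 203 ± 16.1 bp (difference -47.6 ± 76.1 bp, lower on 8 of 12, adjusted p = 0.0739, exact permutation test). The call changes with 1 chromosome: without chromosome 6 the difference was -58.1 bp (adjusted p = 0.0251) and without chromosome 12 it was -54.9 bp (adjusted p = 0.0488).

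The widest window peak, 18800 bp, was classed to the promoter of LOC_Os05g19150 on chromosome 5, from 11115400 to 11134199. It was followed by peaks of 13000 bp at the transcription ends of LOC_Os09g03690 (chromosome 9, 1864200 to 1877199) and LOC_Os12g21600 (chromosome 12, 12145200 to 12158199). A peak of 12600 bp at the transcription end of LOC_Os06g26080 (chromosome 6, 15265000 to 15277599) began only 35 kb from the stated position. Another of 12600 bp was classed to the promoter of LOC_Os09g06530 (chromosome 9, 3104200 to 3116799). Of the 10 widest, 6 were classed as promoter and 4 as transcription end. Their centres were far from a gene start. At LOC_Os05g19150 the signed distance of the centre from the start was -8466 bp, on the upstream side. Each of the 6 promoter peaks was nevertheless wide enough to reach the start.

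Loci with 3 or more peaks made up a larger share in the windows than in the rest, while loci with 2 peaks did so about equally (16.1% and 15.8%). In the windows 51 of 1252 loci carried 3 or more peaks (4.07%, 3.11 to 5.32%), against 418 of 23342 elsewhere (1.79%, 1.63 to 1.97%). The share was higher in the window on 11 of 12 chromosomes, chromosome 5 having none. Of these 51 loci 36 had 3 peaks, 13 had 4 and 2 had more. Their 171 peaks included 83 in introns and 50 at promoters, so that they held 83 of the 186 intron peaks of the windows. In 19 of the 51 the locus number did not end in 0. The counts by class and by locus number were not made for the 418 loci elsewhere, so they describe these 51 loci only. The comparison of shares was added after the data were seen, was not made against the flanks and has no test.

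LOC_Os03g37411 on chromosome 3 had the most, 6 peaks. They run over 19800 bp from 20727600 to 20747399, with a promoter peak 219 bp from the start, 4 peaks in intron 1 and 1 in exon 2 of 7. Their peak numbers, 17066 to 17071, follow each other without a missing one. LOC_Os06g28194 on chromosome 6 had 5 peaks over 20000 bp (16009600 to 16029599), at the promoter, in exon 3 and in introns 4 and 5. LOC_Os06g25500 on the same chromosome had a promoter peak and 3 peaks in intron 5 of 7, the widest of 4200 bp (14899000 to 14903199). LOC_Os10g17489 on chromosome 10 had 3 intron peaks, all in intron 1, and a promoter peak (8812400 to 8824999). Peaks in these loci thus recur within a single intron in several cases. The files give no description for these loci.

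Genes of the expression tables are few in the windows, and most of them carry a peak, as do most of those elsewhere. The expression tables name 1177 genes. Among them 22 have the lower end of their span inside a window, and 19 of these had a promoter peak (86.4%, Wilson 95% interval 66.7 to 95.3%). Outside the windows 826 of 1155 did (71.5%, 68.8 to 74.0%). The intervals overlap. Peaks of whatever class were listed under the gene's own locus identifier at 20 of 22 (90.9%) and at 891 of 1155 (77.1%). Peaks classed to a neighbouring locus were not counted. These are mainly transcription factor genes, so they do not stand for all loci of the windows.

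On chromosome 9 the gene of a B-box zinc finger protein, a family with members in light signalling, carried 4 peaks. This gene, Os09g0240200 (LOC_Os09g06464), had a promoter peak (3062200 to 3064999), 2 peaks in its single intron (3059200 to 3059999 and 3054000 to 3058199) and 1 in exon 2 (3048400 to 3048799), 15972 bp from the start. On chromosome 3, to the left of the stated position, the gene similar to WRKY transcription factor 30 (Os03g0444900), of a family that acts in defence and stress responses, had a promoter peak (18882000 to 18882999) and a peak in intron 1 (18884800 to 18886199). Both classes refer to the model LOC_Os03g33012, whereas the expression tables place the gene itself at 18889278 to 18890595, downstream of both peaks. The gene similar to LOB domain protein 39 (Os03g0445700) had a promoter peak of 2600 bp (18934600 to 18937199), and this peak borders the longest break of that window. Further left lay the C2H2 zinc finger gene Os03g0437200 (promoter peak, 18436200 to 18437599). The gene similar to SHORT-ROOT 2 (Os03g0433200), whose Arabidopsis relative patterns the root, had a promoter peak centred 1131 bp inside the gene (18238600 to 18240599).

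On chromosome 8 a pair of homeobox genes, developmental regulators, each had a promoter peak and 1 peak further inside. These were Os08g0292000 (11702400 to 11702999, and 11710600 to 11710799 in exon 9 of 9) and the gene similar to knotted-1-like 13, Os08g0292900 (11757800 to 11759399, and 11763800 to 11764199 in intron 4). The C2H2 zinc finger gene Os08g0300366 (12358200 to 12360599) and the B3 factor gene Os08g0324300 (14213000 to 14213199, 200 bp wide) had 1 promoter peak each. The widest peak at such a gene, 6000 bp, was at the promoter of the gene similar to homeobox-like resistance, Os06g0485100, on chromosome 6 (16542800 to 16548799). Also on chromosome 6, the transfactor-like gene Os06g0348800 had a promoter peak (14078000 to 14079199) and a peak in exon 3.

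On chromosome 12 promoter peaks stood at Os12g0278800, a CCCH zinc finger gene (10443000 to 10444599), at the jumonji gene Os12g0279100, of a family that includes histone demethylases (10477400 to 10478599), at the gene similar to HUA1 (Os12g0405100, 12193800 to 12195999) and at the SRF-type gene Os12g0407000 (12303400 to 12304599). Chromosome 1 had promoter peaks at the LOB domain gene Os01g0511000 (17976000 to 17979799) and at Os01g0512400 (18062800 to 18066199), a conserved protein with no described role. Chromosome 7 had them at Os07g0410300 (12826400 to 12828599), likewise undescribed, and at Os07g0410700, similar to an ethylene-responsive element binding protein (12847600 to 12848599). The helix-loop-helix gene Os02g0433600 on chromosome 2, of the protein class of PIF4, had no promoter peak and 1 peak in intron 2 of 4 (13762800 to 13763399), which ends the longest break of that window. The 2 genes with no peak under their own locus identifier were Os02g0325600, similar to a phosphate starvation response regulator, and Os10g0323000. The span that the expression tables give Os02g0325600, 13096088 to 13098218, is overlapped by a peak classed to another locus, LOC_Os02g22010 (13093800 to 13097999).

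Transcript levels in PIF4-GFP and GFP mock leaves were compared for the rows at these loci, and 0 of them passed the test. The values are FPKM, fragments scaled to transcript length and library size, tested with limma on log2(FPKM + 1), a scale that understates changes of low rows. Of the 20 rows at loci with a window peak 13 passed the filter of 1 FPKM in 3 samples, and 0 of these 13 were called at an adjusted p of 0.05, beside 0% of all 847 rows tested. Among the rows that did not pass the filter, Os09g0240200, Os01g0511000, Os06g0348800, Os07g0410700 and Os12g0407000 read 0 FPKM in every library. With an unadjusted p under 0.05 there were 0 of the 13 and 33 of the 847. In 12 of the 13 the PIF4-GFP mean was lower, with a median log2 difference of -0.09, where 673 of all 847 rows were lower with a median of -0.06. After centring each library on its median 9 of the 13 and 362 of the 847 were lower. Nothing in the labels says that replicates are separate plants, so p-values measure only the spread between these libraries, which may be technical.

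These rows carry gene names that the values may not belong to. The FPKM values resolve into 1 whole length per row in 917 of 917 rows with enough values, and this length was unrelated to the span of the gene named on the row (Spearman rho 0.02 across rows, which are not independent). Each name is therefore given only as the label of its row. The lowest of the 13 was the row Os06g0485100 with 55.6, 45.1 and 60.2 FPKM in PIF4-GFP and 65.5, 56.6 and 60.5 in GFP mock. The groups overlap, and the log2 difference was -0.19 (SE 0.10, limma adjusted p = 0.895). The row Os03g0444900 had 9.48, 9.57 and 11.96 FPKM in PIF4-GFP and 12.5, 11.94 and 11 in GFP mock, again overlapping (log2 difference -0.18, SE 0.11, limma adjusted p = 0.895). The row Os12g0405100 had 26.6, 26.9 and 25.8 FPKM against 27.0, 29.7 and 29.8, with each mock value above each PIF4-GFP value (log2 difference -0.12, SE 0.08, limma adjusted p = 0.895). The row Os01g0512400 had a log2 difference of -0.15. The highest of the 13 was Os08g0300366 with 24.9, 25.6 and 23.1 against 25, 22.1 and 25.7 FPKM (log2 difference 0.02, SE 0.09, limma adjusted p = 0.966), followed by Os08g0324300, Os03g0433200 and Os08g0292900 at -0.04, -0.05 and -0.06. All 13 differences lie within about 2 standard errors of 0.

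The window edge at 1.5 Mb is a round distance and falls within a continuous run of peaks. The outermost peaks inside, 1 per chromosome, began 1464.4 to 1499.4 kb from the stated position, and 10 of 12 were promoter peaks with a median width of 1600 bp. The first peaks outside began 1500.4 to 1551.6 kb away, and 11 of 12 were promoter peaks with a median width of 1900 bp.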

How the data were processed

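The submitters' processing notes name Bowtie 0.12.2, HISAT2 2.0 and StringTie 1.3.0 with no role, and the mouse build mm8, whereas loci carry rice identifiers. Which rice build, caller and threshold were used is not stated there, so coordinates are printed as in the deposited list, which holds no score. The authors deposited 1 FPKM value per gene and sample, a unit taken from the values, with sums of 60694 to 69554 over the 1177 genes. Read depth is unknown for peaks and FPKM values alike.

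Each chromosome gave 1 value inside the window and 1 outside, its length being taken up to the last peak, and the 12 differences were tested with an exact two-sided permutation test of their signs (scipy 1.17.1), adjusted by Benjamini-Hochberg over 10 measures at a threshold of 0.05. For FPKM rows a trended limma fit (version 3.58.1, under R 4.3.3) was used, adjusted over all rows. Code for both was tested on simulated data. A gene of the tables was matched to peaks through its locus identifier without the transcript suffix. Python 3.11.15, numpy 2.4.6, pandas 2.3.3 and matplotlib 3.10.9 were used. Members, measures and rules were chosen with earlier results of these data known. Named were the peaks nearest to each position, the widest peaks, loci with 3 or more peaks and, among rows, the 4 highest and 4 lowest; genes of the tables inside the windows were named after their values were seen. A planned motif search and a count by product words were not run, since promoter sequences and descriptions of these loci were not used here.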

Additional observations from a re-analysis of the deposited data

How the results depend on the processing

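Each of the 10 measures was recomputed under 19 alternatives, and peaks per locus step under 21, and direction was kept in all of them except that the median width difference reached 0. Against the flanks alone 5 calls were lost: density (-8.04 peaks per Mb), listed share (-3.28 points), covered share (-1.41 points), promoter share (-4.38 points) and intron share (3.85 points); peaks per locus step kept its call there (-0.0866) only with the jumps of the numbering included, and lost it without them (-0.0363), a setting chosen after seeing the data. With a half-width of 1 Mb the transcription end share (1.82 points) and the exon share (-2.81 points) passed, and with peaks of at least 800 bp alone the distance of promoter peaks did (-76.75 bp). Leaving out 1 chromosome at a time gave -39.2 to -35.7 peaks per Mb, an exon difference of -2.18 to -1.30 points and a promoter distance of -58.1 to -34.9 bp. The causes were not tested. Of all rows 1 was called with the replicate block and 0 to 2 without single libraries (2 without PIF4-GFP replicate 2), 0 of them at window loci; same-numbered libraries deviated together with correlations of 0.11, 0.16 and -0.09, so they were not taken as pairs. After centring, the rows Os08g0324300 (0.037), Os03g0433200 (0.030) and Os08g0292900 (0.015) changed sign. Without single libraries Os08g0300366 ran from -0.044 to 0.060, Os03g0433200 from -0.085 to 0.014 and Os08g0324300 from -0.112 to 0.021.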
